A study of Mus musculus with 8 samples.

Results

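The 9 genes examined here were Dnmt1, Uhrf1, Dnmt3a, Dnmt3b, Dnmt3l, Tet1, Tet2, Tet3 and Tdg. They encode enzymes that place, copy or remove methyl groups on cytosine, together with the partners Uhrf1 and the catalytically inactive Dnmt3l. They were chosen by name for this function, out of 21755 protein-coding genes on chromosomes 1 to 19 and X, and every deposited region that overlapped one of them or lay within 10 kb of its body was taken. Accessible DNA had been mapped by ATAC-seq, in which a transposase cuts open chromatin, in 4 control and 4 Alb-D2KO libraries, each made from 50000 nuclei of adult C57BL/6 liver. In Alb-D2KO mice the floxed Dio2 gene, which encodes the type 2 deiodinase that converts thyroxine to the active hormone T3, is deleted by a Cre driven by the albumin promoter. The deletion is thus aimed at hepatocytes, while the nuclei came from whole liver. The control livers were labelled control, with "cre" in the sample titles, and both groups shared strain, tissue and stage. In the paper, controls of the ChIP-seq and RNA-seq are described as Cre animals, while the ATAC-seq controls are called only control.

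The data are 2 lists of regions on the mm10 build. One holds 8031 regions called in control liver that overlapped no region called in Alb-D2KO liver, termed RCAs for reduced chromatin accessibility, and the other 250 regions open in Alb-D2KO liver alone. The libraries of a genotype were pooled before regions were called, so a region is listed or not listed, with no value per animal, no replicate error and no test between genotypes, and the depth of the libraries is unknown. In whole-liver nuclei, a region that closed and a smaller share of the cells in which it is open cannot be told apart. The identity of the tissue could not be checked, since regions open in both genotypes are not in these lists. Each region carries an area, the area under the curve of its −log10 p, and regions with an area under 200.004 do not occur among the RCAs. The paper reports fewer open regions in Alb-D2KO than in control liver. The highest number in the region names was 22367 among the RCAs and 14824 in the other list. A control region can thus be listed as lost because its signal in Alb-D2KO liver fell just short of a call. How often this occurred was not tested.

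DNA methylation in mammals is laid down by the de novo methyltransferases Dnmt3a and Dnmt3b, helped by the catalytically inactive Dnmt3l, and is copied to the new strand at replication by Dnmt1, which Uhrf1 guides to half-methylated CpG sites. The Tet dioxygenases oxidise methylcytosine, and the glycosylase Tdg cuts out the oxidised bases so that base excision repair can restore cytosine. In adult liver, where most hepatocytes do not divide, Dnmt3a is known as a main de novo enzyme, whereas Dnmt3b and Dnmt3l belong chiefly to the embryo and the germ line.

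The rule found 6 regions, all of them RCAs, and the list of regions open in Alb-D2KO liver alone held 0. Of these 6 RCAs, 4 lay inside Dnmt3a, 1 inside Tet2 and 1 in the flank of Tet3. The other 6 genes, Dnmt1, Uhrf1, Dnmt3b, Dnmt3l, Tet1 and Tdg, had none within 10 kb. The sequences of 4 of the 6, in introns of Dnmt3a and Tet2, are shown because they are the DNA inside these genes that was open in control liver and not called in Alb-D2KO liver. Those of the RCA in the 3′ untranslated region of Dnmt3a and of the RCA beside Tet3 are not printed. Each is the mm10 plus strand from 5′ to 3′, whole where the region is at most 300 bases and otherwise a stretch at its summit, with capitals for CpG, the dinucleotide that the enzymes encoded by these genes act on.
Dnmt3a intron 1, chr12:3808466-3808666: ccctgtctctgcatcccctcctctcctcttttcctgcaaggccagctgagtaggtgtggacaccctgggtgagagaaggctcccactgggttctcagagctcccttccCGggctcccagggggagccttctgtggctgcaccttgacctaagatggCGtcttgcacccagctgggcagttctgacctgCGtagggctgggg
Dnmt3a intron 4, chr12:3866758-3866958: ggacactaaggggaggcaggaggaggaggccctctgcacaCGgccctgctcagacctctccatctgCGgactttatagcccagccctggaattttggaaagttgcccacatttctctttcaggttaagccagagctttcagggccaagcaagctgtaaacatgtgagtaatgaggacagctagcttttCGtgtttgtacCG
Dnmt3a beside the short-form start, chr12:3892388-3892588: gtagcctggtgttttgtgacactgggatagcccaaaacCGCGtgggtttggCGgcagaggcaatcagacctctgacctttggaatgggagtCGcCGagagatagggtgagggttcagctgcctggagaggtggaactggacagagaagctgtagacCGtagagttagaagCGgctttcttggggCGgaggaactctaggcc
Tet2 intron 1, chr3:133516238-133516476: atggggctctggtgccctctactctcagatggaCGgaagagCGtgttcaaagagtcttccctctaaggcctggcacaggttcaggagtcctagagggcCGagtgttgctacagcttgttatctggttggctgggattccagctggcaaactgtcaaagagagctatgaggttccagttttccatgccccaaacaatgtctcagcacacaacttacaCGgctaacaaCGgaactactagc

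The 6 RCAs held between 4 and 33 CpG dinucleotides, or 1.6 to 4.6 per 100 bp, beside a median of 1.72 (quartiles 1.0 and 3.07) over 8021 RCAs on the assembled chromosomes. The ratio of observed to expected CpG ran from 0.232 to 0.439, and the median of all RCAs was 0.273. The most CpG-rich was the RCA in the first intron of Dnmt3a, with 33 CpGs and 65.3% G and C. Consensus letters of 8 factors, searched on both strands without mismatch, were absent from all 6 RCAs. The letters were GGGGCGGGG for SP1 (in 5.24% of the 8021 RCAs), GCCACACCC for KLF1 (1.13%), GGCGGGAAA for E2F3 (0.249%), GCGCATGCG for NRF1 (0.312%), GCGTGGGCG for EGR2 (0.337%), CCGGAAGTG for ELK1 (0.549%), CTACAANTC for ZNF143 (0.661%) and AGNNGGCGC for CTCF (9.64%). Since each of these stretches is rare in RCAs at large, their absence from 6 regions says little.

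**Figure D1:**
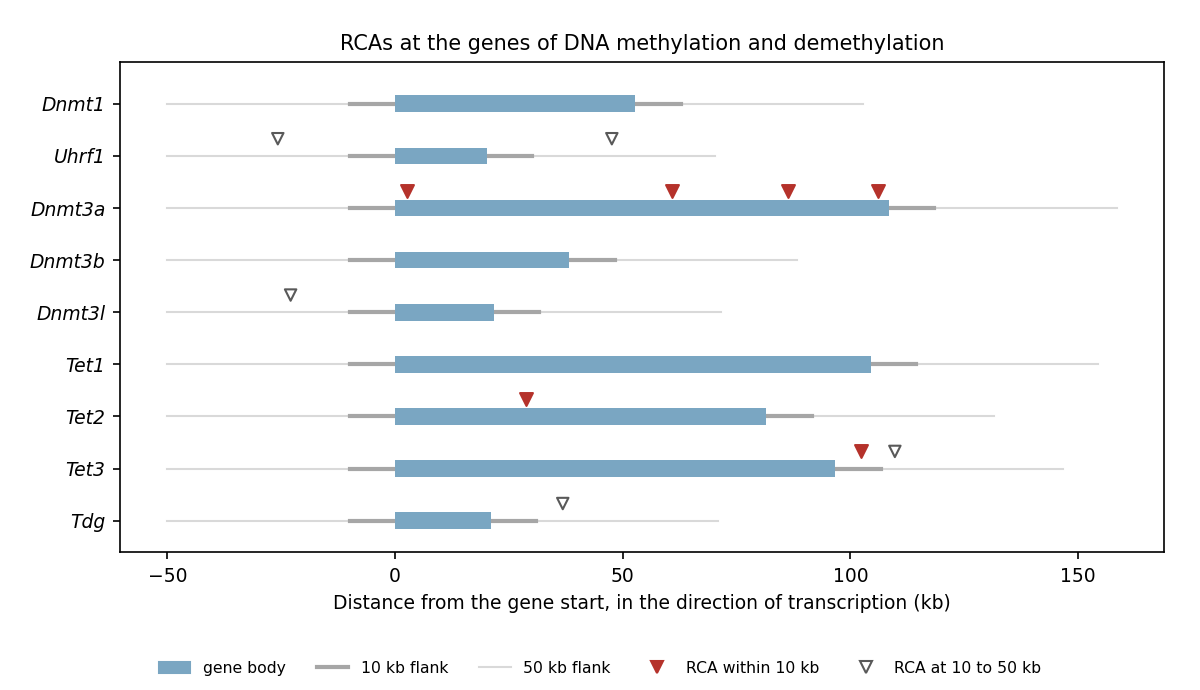
Map of the 9 genes on one scale, with distance from the gene start in the direction of transcription (kb) on the horizontal axis. Blue bars are gene bodies, thick and thin grey lines the flanks of 10 and 50 kb, red triangles the 6 RCAs within 10 kb and open triangles the 5 RCAs at 10 to 50 kb. Dnmt3a holds 4 of the 6.

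The maintenance genes had no RCA. Dnmt1 (chr9:20907209-20959888, minus strand, 52.7 kb) was 73.2 kb from the nearest RCA on its upstream side and 126 kb from the nearest downstream. Uhrf1 (chr17:56303321-56323486, plus strand, 20.2 kb) lay between RCAs 25.7 kb upstream and 27.3 kb downstream. The numbers in the region names rise in genomic order within each list, and were read here as given to all regions called in a genotype before the subtraction. Neither the labels nor the methods state this. The highest control number was just below the count of open control areas that the paper gives. The highest Alb-D2KO number was above the paper's count for that genotype, which this reading leaves unexplained. On that reading, numbers skipped between neighbouring RCAs count control regions that were not listed as lost, although not their positions. By this count, 14 such regions lay in the 251 kb between the RCAs on either side of Dnmt1, and 4 in the 73.2 kb around Uhrf1. On the same reading, open chromatin not lost in Alb-D2KO liver was present around both genes, whether at their starts or elsewhere in these stretches.

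Among the de novo genes, Dnmt3a had the most RCAs. The gene (chr12:3806007-3914443, plus strand, 108 kb) is transcribed from several starts, among them one deep inside the gene, at base 3891744, that gives the shorter form known as Dnmt3a2. The 4 RCAs spanned 104 kb, nearly its whole length, and each lay within the gene body. Their areas were 244, 237, 205 and 387 in the order of transcription, summing to 1070. The first 3 were below the median of 278 over all 8031 RCAs, and the RCA at the 3′ end was above it.

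The first RCA of Dnmt3a, chr12:3808158-3808875, lay in intron 1 of the full-length coding transcripts, which have 23 exons. Its near edge was 998 bp downstream of the closest coding start and 2.15 kb from the start of the annotated gene. It was 718 bp wide, wider than most RCAs (96.3rd percentile of width), while its area of 244 was at the 32.6th percentile and its summit −log10 q was 2.58. It was thus broad and shallow, with a score of 340 (1000 times the area per base).

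The second RCA, chr12:3866647-3866958, lay in intron 4 of the full-length transcripts, 456 bp downstream of the start of a short annotated coding transcript. It also overlapped an exon of a non-coding transcript that retains an intron, so the class assigned to it was exon. It was 312 bp wide, with an area of 237 (27.8th percentile) and a summit −log10 q of 2.90.

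The third, chr12:3892032-3892588, was the closest to a start. It lay 288 bp downstream of the Dnmt3a2 start, in intron 1 of that transcript of 19 exons and in intron 6 of the full-length transcripts. At 557 bp it was wide (88.9th percentile), but its area of 205 was just above the smallest area in the list (4.58th percentile), with a summit −log10 q of 2.80. The fourth, chr12:3911968-3912330, lay in the 3′ untranslated part of the last exon, exon 23 of the full-length transcripts and exon 19 of Dnmt3a2. It was the strongest region at any of the 9 genes, with an area of 387 (82.2nd percentile), a width of 363 bp and a summit −log10 q of 3.18. RCAs that overlap a 3′ untranslated region numbered 282, or 3.51% of the list, with a median area of 281.

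**Figure D2:**
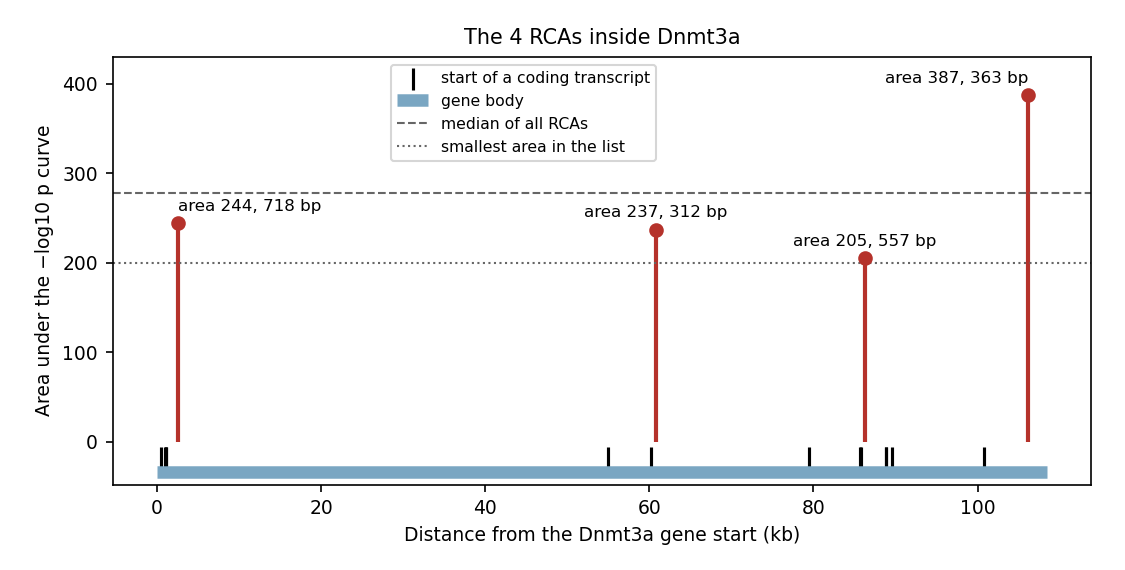
The 4 RCAs inside Dnmt3a by distance from the gene start (kb), with the height of each line giving its area under the −log10 p curve. Black ticks mark starts of coding transcripts, the dashed line the median area of all RCAs (278) and the dotted line the smallest area in the list (200.004). The third RCA, beside the Dnmt3a2 start, is barely above the dotted line, and the fourth, at the 3′ end, is the highest at 387.

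The 4 RCAs of Dnmt3a carried consecutive numbers, 15404 to 15407. If the numbering is as read above, no other control region was called between them over gaps of 57.8, 25.1 and 19.4 kb. Upstream, on the same reading, 2 control regions that were not lost lay somewhere in the 235 kb before the first RCA, a stretch that includes the Dnmt3a start. Consecutive numbers are common among RCAs: 42% of 7999 neighbouring RCA pairs had them. Of the 36 other coding genes of similar length with 4 or more RCAs in the body, 17 (47.2%) had consecutive numbers throughout, so Dnmt3a was not unusual in this.

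Dnmt3b (chr2:153649450-153687730, plus strand, 38.3 kb) had no RCA nearer than 204 kb upstream and 881 kb downstream, with 10 control regions not lost in between by the same count of numbers, which also gives the counts for the genes that follow. Dnmt3l (chr10:78041947-78063622, plus strand, 21.7 kb) had one 22.8 kb upstream and the next 180 kb downstream, with 5 control regions not lost in between. Neither list holds a region at either gene, and whether their own starts were open in control liver is not shown by these lists.

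Of the dioxygenase genes, Tet1 (chr10:62804570-62908996, minus strand, 104 kb) had no RCA within 10 kb although it is nearly as long as Dnmt3a. Its nearest RCAs were 56.9 kb upstream and 573 kb downstream, and 10 control regions not lost lay between them. Tet2 (chr3:133463679-133545139, minus strand, 81.5 kb) held 1 RCA, chr3:133516238-133516476, in intron 1 and 27.9 kb downstream of the nearest coding start. It was narrow, at 239 bp, with an area of 229 (22.9th percentile) and a summit −log10 q of 3.03. No other RCA was within 200 kb of the gene: the next were 204 kb upstream and 898 kb downstream.

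Tet3 (chr6:83362373-83459084, minus strand, 96.7 kb) had no RCA in its body. The 1 RCA in its flank lay 5.56 kb past the 3′ end of Tet3 and inside intron 3 of its neighbour Bola3, which encodes a mitochondrial protein of iron-sulphur cluster assembly. The nearest coding start was that of Bola3, 7.19 kb away, and the nearest coding start of Tet3 was 84.9 kb away. The region was 180 bp wide, with an area of 249 (35.8th percentile) and a summit −log10 q of 3.44. The next RCA outward, 12.8 kb from Tet3 and so just outside the limit of 10 kb, covered the Bola3 start with an area of 405. Tdg (chr10:82629828-82650799, plus strand, 21 kb) had no RCA within 10 kb, the nearest being 15.8 kb downstream, and 14 control regions not lost lay between the RCAs on either side of the gene.

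The areas were mostly low for the list. In all, 5 of the 6 had areas below the median of all RCAs, from 205 to 249, and the median of the 6 was 240. Widths ran from 180 to 718 bp, 3 of them above the median of 326 bp and 3 below it.

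**Figure D3:**
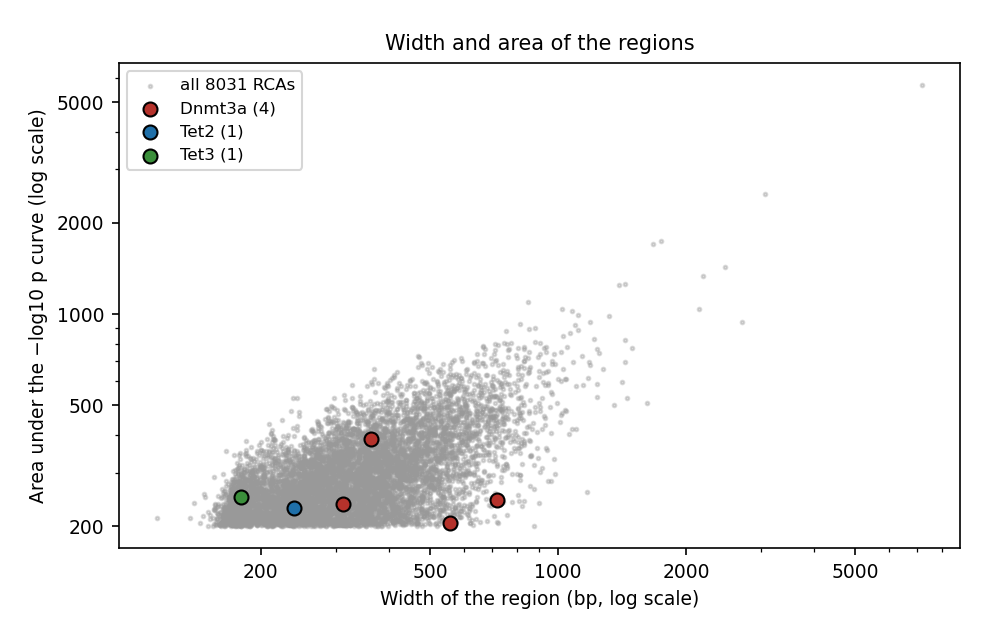
Width (bp) against area under the −log10 p curve for the 8031 RCAs (grey) and the 6 RCAs at the member genes (coloured), both axes on log scales. The RCAs in intron 1 and beside the Dnmt3a2 start, 718 and 557 bp wide, lie along the lower edge of the cloud, at areas of 244 and 205.

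None of the 6 RCAs was a promoter region by the definition of the study, within 200 bp of an annotated start, while 19.4% of the 8031 RCAs were. Likewise no member gene had an RCA within 200 bp of a start of its own, beside 5.99% of protein-coding genes. Of the 6, 4 were intronic and 2 exonic, counting the non-coding exon, and none was intergenic. With a window of 1000 bp in place of 200 bp, the 3 RCAs of Dnmt3a nearest to starts became promoter regions. In the whole list, 963 RCAs (12%) lay more than 200 bp and at most 1 kb from a start.

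Of the 9 genes, 3 had an RCA within 10 kb, or 33.3%, beside 25.3% of the 21755 protein-coding genes. Longer genes have more room for regions, so each was also set beside all other coding genes whose length was within 25% of its own. At least 1 RCA was found for 30.5% of the 2308 genes as long as Dnmt1, 26.9% of the 3049 as long as Uhrf1, 28.6% of the 2704 as long as Dnmt3b, and 27.1% of the 3035 as long as Dnmt3l. For Tet1 the share was 34.9% of 1490 genes, for Tet2 32.5% of 1717, for Tet3 33.2% of 1547 and for Tdg 27.0% of 3034. The count of genes with an RCA was thus near that of genes of their length, and is no result about these genes as a group. Since regions and genes are not animals, no test was made.

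For Dnmt3a, 35.2% of the 1441 coding genes of similar length had an RCA and 3.68% (53 genes) had 4 or more, the highest count being 11. Dnmt3a had the most RCAs of the members, so these shares describe a gene picked by its count. Over all coding genes, 345 (1.59%) had 4 or more within 10 kb. The count of 4 rested on the weak regions, since only the one at the 3′ end had an area of 300 or more. At that minimum 18% of the genes of similar length had at least as many RCAs as Dnmt3a.

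**Figure D4:**
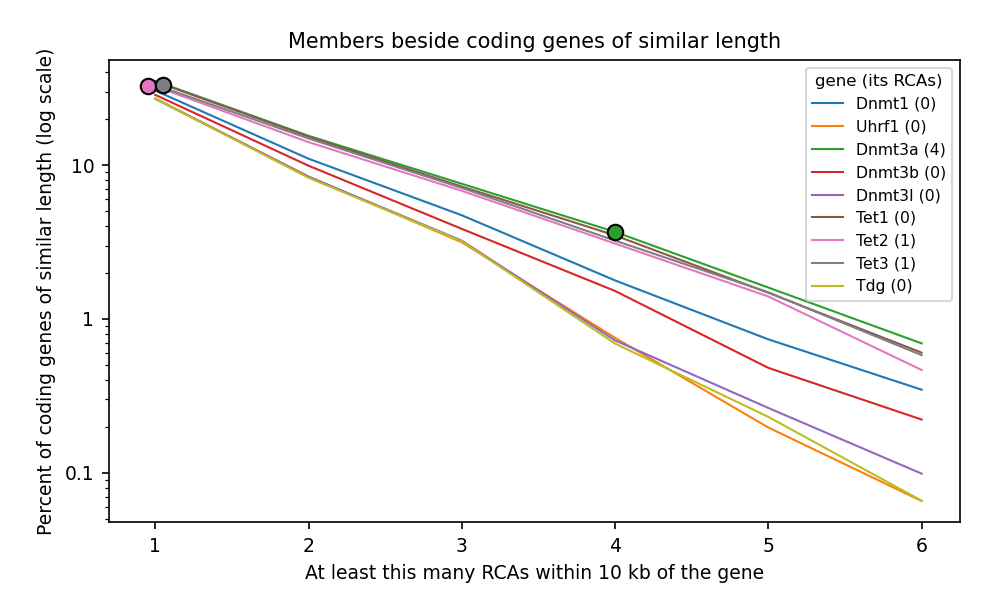
Percent of protein-coding genes within 25% of each member's length (log scale) that had at least the number of RCAs on the horizontal axis within 10 kb. Lines are the 9 members' length classes, with each member's own count in brackets, and points mark members with an RCA, those of Tet2 and Tet3 being moved slightly apart. Dnmt3a, the member with the most RCAs, lies at 4, a count reached by 3.68% of its class, while Tet2 and Tet3 lie at 1.

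None of the 9 genes had a region of the other list, beside 1.02% of protein-coding genes, and none had one within 50 kb. The nearest region open in Alb-D2KO liver alone was 0.388 Mb from Tdg, 0.659 Mb from Tet3, 0.789 Mb from Dnmt3l, 1.24 Mb from Dnmt3b and 1.97 Mb from Tet2. For Dnmt1, Uhrf1, Dnmt3a and Tet1 it was between 6.36 Mb (Uhrf1) and 13.3 Mb (Dnmt3a) away. With 250 regions in that list, this says little of any single gene.

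The enzymes work with other proteins, and 52 genes of 6 lists were examined in the same way. Of these, 26 had an RCA within 10 kb and 12 had one within 200 bp of a start of their own. Over all protein-coding genes these shares were 25.3% and 5.99%. Only a region called in control liver can be an RCA, and the shares were not restricted to genes open in liver. How far the listed genes are more often open in liver than coding genes at large was not tested. Of the 52 genes, 23 had an RCA that was closer to their own coding start than to that of another gene. Among coding genes of the length of each of the 52, the share with an RCA within 10 kb ran from 17.5% to 35.9%. None of the 9 genes had an RCA at a start of its own. Of coding genes of their lengths, 6.46% to 8.81% had one, so that 0 of 9 is near the background. The lists were chosen with earlier results of these data known, and no test was made between them and the 9 genes.

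The genes of S-adenosylmethionine, the methyl donor, had the most: 9 of 11 had an RCA, 15 in all, and 4 had one at an own start. Mat1a, the adenosyltransferase that makes the donor in adult liver, had 3 RCAs with a summed area of 858, 1 of them at a start. Mat2a and Mat2b, the catalytic and regulatory subunits of the form outside adult hepatocytes, each had 1 at a start, with areas of 408 and 366. Bhmt, which remethylates homocysteine, had 1 at a start with an area of 425. Ahcy, which breaks down the S-adenosylhomocysteine left by methyl transfer, had 2 RCAs summing to 1060, the larger with an area of 645, and neither was at a start.

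Among genes of H3K9 methylation, a histone mark that acts with DNA methylation, 5 of 8 had an RCA and 4 had one at a start of their own. These 4 were the methyltransferase genes Suv39h1 (area 305), Ehmt1 (208) and Ehmt2 (2 RCAs summing to 694, 1 of them at a start), and Cbx3 (215), which encodes an HP1 protein. Of the 2 RCAs of Ehmt2, only 1 was nearest to its own coding start. Cbx5, another HP1 gene, had an RCA with an area of 391 that was closer to the start of another gene. Of the readers of methylated CpG, 2 of 8 had an RCA, both at a start: Zbtb4 (341) and Zbtb38 (228), zinc finger proteins that bind methylated DNA.

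Of the maintenance and targeting partners, 3 of 8 had an RCA and none had one at a start. Trim28, a corepressor recruited by zinc finger proteins, had 3 RCAs within 10 kb summing to 1050, of which 1 was nearest to its own start, and Usp7, a deubiquitinase that binds Dnmt1 and Uhrf1, had 1 with an area of 284. Of the Tet partners and cofactor enzymes, 3 of 8 had one, among them Cxxc5, a CXXC-domain protein (2 RCAs summing to 696, 1 of them at a start), and Idh1, which makes the 2-oxoglutarate that Tet enzymes need (2 RCAs summing to 419). Of the base excision repair genes, 4 of 9 had an RCA, but only 2 had one nearest to their own coding start. Neil2, a glycosylase, had an RCA at a start (area 241), and the uracil glycosylase gene Ung had 2 summing to 513. Apex1, the endonuclease acting after Tdg, had 1 (251) that was nearer to another gene's start. Regions open in Alb-D2KO liver alone were within 10 kb of 2 of the 52 genes, Zbtb33 and Neil3, named after their values were seen. The share over all protein-coding genes was 1.02%, and 2 genes are too few to compare with it.

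**Figure D5:**
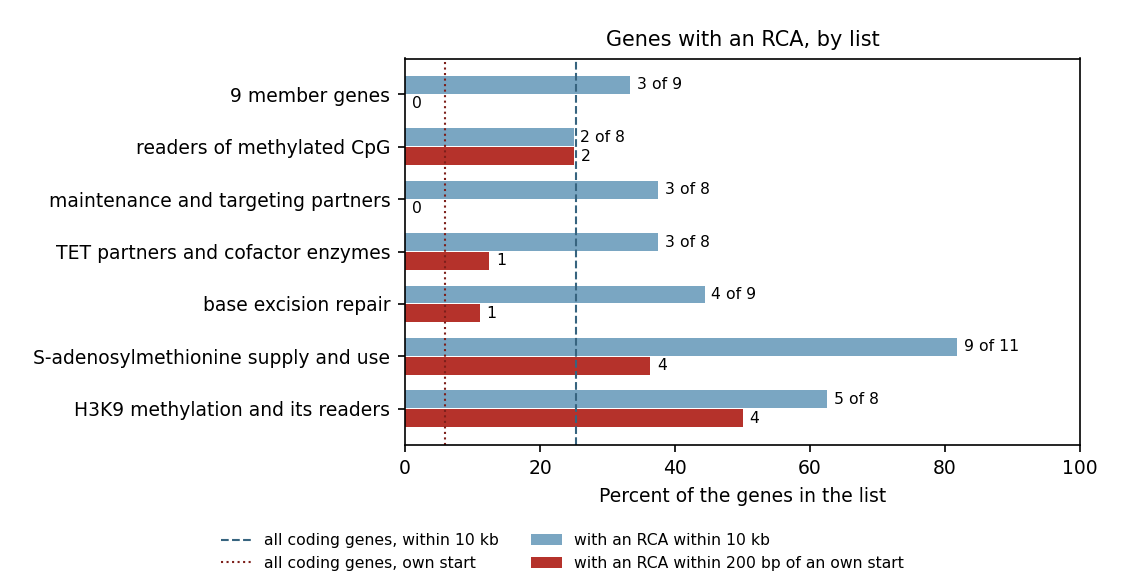
Percent of the genes of each list with an RCA within 10 kb (blue, with counts) and with an RCA within 200 bp of a start of their own (red, with counts). The dashed and dotted lines are the shares over all 21755 coding genes, 25.3% and 5.99%, whether or not a gene is open in liver. The 9 member genes lie at 3 and 0, and the genes of S-adenosylmethionine supply and use at 9 of 11 and 4.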

How the data were processed

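Nuclei of frozen liver were profiled by ATAC-seq in 4 control and 4 Alb-D2KO mice. The authors trimmed adapters, aligned reads to mm10 with BWA 0.7.17, and removed alignments that were duplicates, chimeric, supplementary or of low mapping quality. They called regions with Genrich 0.6 on pooled libraries before subtracting overlapping regions between genotypes. The paper states that calls on single libraries gave only a few regions, judged not to reflect ATAC enrichment. Those regions were merged into a blacklist and left out of the pooled calls. Blacklisted DNA could thus appear in neither list, and whether any lay near a member gene was not tested. The signal deposited for each region is its area under the −log10 p curve, the deposited score is that area per base times 1000 with a ceiling, and the deposited −log10 q is that of the summit. The score was only quoted once, and area was used to rank and filter regions within a list.

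Genes and starts came from GENCODE M21 (an mm10 annotation, not the release named in the methods) and sequence from GRCm38.p6. In it, all 16 RefSeq promoter sequences of the 9 genes were found at their stated positions. A region belonged to a gene when it overlapped the body by 1 bp or lay within 10 kb. Classes were taken in the order promoter (within 200 bp of any annotated start), exon, intron, intergenic. Similar length meant within 25%. Counting was tested on simulated regions. No test between genotypes was possible on calls from grouped libraries, and depth is unknown. The member genes, the 6 lists of partner genes and the motifs were chosen with earlier results of these data known. Genes named from those lists were those with an RCA at a start and the 2 with the largest summed area. Alternatives were distances of 0, 5, 20 and 50 kb, an area of at least 300, a summit q under 0.001, region midpoints, merging within 100 bp, a width of at least 200 bp, promoter windows of 1000 and 3000 bp, other choices of starts, and length windows of 10% and 50%. Scripts ran in Python 3.11.15 with pandas 2.3.3. The sequence of the RCA beside Tet3 is not reported here.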

Additional observations from a re-analysis of the deposited data

How the results depend on the processing

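No Alb-D2KO-only region was found at any of the distances tried. The count of 6 RCAs at 3 genes was moved by the smallest area accepted, by the summit q and by a distance of 50 kb. An area of at least 300 left 1 RCA at 1 gene (Dnmt3a), and 50 kb gave 11 RCAs at 6 genes. A summit q under 0.001 left 3 RCAs at 3 genes. It dropped the first 3 RCAs of Dnmt3a, with −log10 q of 2.58, 2.90 and 2.80. The lower quartile over 8021 RCAs was 2.91. Distances of 0 and 5 kb, or keeping regions whose nearest coding start was the member's, dropped the RCA beside Tet3 and left 5 RCAs at 2 genes. A distance of 20 kb gave 8 RCAs at 4 genes, and a width of at least 200 bp left 5 RCAs. The count of 0 promoter RCAs became 3 with windows of 1000 and 3000 bp, all in Dnmt3a, and was 0 under the other alternatives. For genes of the length of Dnmt3a, the share with an RCA was 29.0% within the body, 48.9% within 50 kb and 18% at an area of at least 300, and the share with at least as many RCAs as Dnmt3a was 2.50%, 9.23% and 18%. No paired analysis was possible because the regions were called on grouped libraries and carry no value per sample. For the same reason no library could be left out.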

Other observations

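Between 10 and 50 kb from the genes there were 5 RCAs, all nearest to the coding start of a gene other than the member. Those on either side of Uhrf1 were in a 3′ untranslated exon of Plin3, 674 bp from the start of Ticam1 (area 206), and in an intron of Kdm4b, a histone H3K9 demethylase (area 219). The one upstream of Dnmt3l was intergenic, 8.75 kb from the start of Pfkl, the liver phosphofructokinase gene (area 314). The one downstream of Tdg was in an intron of Glt8d2 (area 255), and the one beyond Tet3 covered the Bola3 start (area 405). The regions upstream of Dnmt3l and downstream of Tdg held the CTCF letters AGNNGGCGC, which 9.64% of RCAs held.

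The sequence AGGTCA, the half-site bound by thyroid hormone receptors and many other nuclear receptors, was counted on both strands after the sequences had been seen. It occurred 3 times in the RCA beside the Dnmt3a2 start and 2 times in that of the first intron of Dnmt3a, and was absent from the other 4 RCAs at the member genes. At least 1 match was in 34.5% of all RCAs. Of RCAs within 25% of the width of each, 4.03% had 3 or more and 17.9% had 2 or more. These were 6 regions examined for a motif chosen on sight, and a match of 6 letters does not show binding.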
